A study of Rattus norvegicus with 9 samples.

Results

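The 9 genes described here belong to the response of skeletal muscle to loss of its nerve and to the acetylcholine receptor of the neuromuscular junction: Hdac4, Gadd45a, Runx1, Ncam1, Chrna1, Chrnb1, Chrnd, Chrne and Chrng. They were chosen by name with earlier results of these data known, as were the gene lists read beside them. Shares of all genes set beside them below are therefore descriptions, not independent support. Each of the 9 matched 1 row by its symbol among the 30518 rows of the count table. All 9 passed the filter on low counts that left 16256 genes tested. Expression was measured by RNA sequencing of pubococcygeus muscle, which is striated and forms part of the pelvic floor, in female Sprague-Dawley rats. The study allotted 24 rats evenly, 8 to each of 3 groups, and the 9 libraries analysed were 3 from each.

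Stimulated rats carried a model of stress urinary incontinence (SUI) and received pelvic floor electrical stimulation through the vagina. Stimulation began 1 week after the operation with monophasic square pulses of 50 Hz, 20 mA and 200 µs, given for 30 min a day, 5 days a week, over 2 weeks. SUI rats had the same model, made by removal of both ovaries and by distension of the vagina for 4 h with an 8 Fr balloon catheter that held 3 mL of saline and bore a 120 g weight, and were then left untreated. Blank rats had neither operation nor treatment. Ovary removal and distension were thus always combined, and no group had a sham operation or a sham stimulation, so that their parts cannot be told apart. No age is given in the labels. The library names call the SUI group sham, but the sample titles describe the full model and were followed. Nothing beyond a replicate number ties a library to a rat, so p-values measure only the spread between these libraries, which may be technical.

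In innervated adult muscle, electrical activity keeps the acetylcholine receptor genes silent along most of the fibre, and only the nuclei under the nerve ending transcribe them. When activity is lost, the deacetylase HDAC4 accumulates and represses genes such as Dach2, which otherwise restrains myogenin, and myogenin then binds E-box motifs in the receptor gene promoters, as worked out mainly in mice. The receptor is a ring of alpha, beta and delta subunits with either gamma, in fetal and denervated muscle, or epsilon, in adult muscle.

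Total counts ran from 50833480 to 147650284 per library with a median of 110699836, and 3 counts, the level taken as the detection floor, corresponded to 0.021 to 0.0794 CPM (counts scaled to depth, here with TMM-adjusted library sizes), which covers counting error only. Every member lay well above that floor in every library. The 12 skeletal muscle fibre markers summed to between 120416 and 224561 CPM, and none was at 0. Blank replicate 1 stood apart, with 32.9% of its counts from mitochondrial genes against 13.4% to 17.7% in the others and the lowest median correlation with the other libraries. Values below are CPM in replicates 1, 2 and 3 of a group. Log2 fold changes are from edgeR's quasi-likelihood test over all 16256 genes, given ± SE, and a gene was called at a Benjamini-Hochberg adjusted p under 0.05. The tissue was sequenced in bulk, where fewer cells of a type and less RNA per cell cannot be told apart.

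SUI over blank asks what the model did to these genes. All 9 had a positive log2 fold change, against 50.8% of all genes tested, although that of Chrnb1 was 0.0019 and turned negative with DESeq2's size factors, with a median of 0.77 against 0.01 over all genes. With edgeR none of the 9 was called, against 0% of all genes (0 genes, with 1329 at an unadjusted p under 0.05). DESeq2 called 2 of the 9, both higher, against 176 of the 16256 genes tested, 37 higher and 139 lower. At an unadjusted p under 0.05 were 2 of the 9, against 8.18% of all genes, and both, Hdac4 and Gadd45a, were higher, against 2.84%, while none was lower, against 5.34%. In 3 of the 9, Hdac4, Gadd45a and Chrnd, every SUI library lay above every blank library, against 7.34% of all genes, and in none did every one lie below, against 7.77%. The signs of Chrna1 and Chrne also depended on single libraries or settings, and 8 to 9 of the 9 were positive over the alternatives.

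Stimulated over SUI asks what stimulation did in rats that all carried the model. There 7 of the 9 had a negative log2 fold change, and 6 to 9 did over the alternatives, where Chrna1, Chrnd, Chrne and Ncam1 each changed sign in some. Ncam1 kept its positive sign in only 9 of the 22 alternatives, and was negative, for example, when libraries were scaled by totals only. Beside this count stand 52.6% of all genes positive, and the median of the 9 was -0.15 against 0.02 over all genes. None of the 9 was called with edgeR, against 0.0123% of all genes (2 genes). DESeq2 called 2 of the 9, both lower, against 208 of the 16256 genes tested, 153 higher and 55 lower. At an unadjusted p under 0.05, 2 of the 9 passed, against 8% of all genes. Both, Hdac4 and Gadd45a, were lower, against 2.77%, and none was higher, against 5.23%. In these 2 genes every stimulated library lay below every SUI library, against 9.28% of all genes, and in none did every one lie above, against 9.52%. This comparison shares its SUI libraries with the one before, so opposite signs in the 2 are not independent of each other.

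Stimulated over blank sets treated muscle against untouched muscle. There 8 of the 9 had a positive log2 fold change, against 54.3% of all genes, with a median of 0.43 against 0.04, and 6 to 8 were positive over the alternatives. None of the 9 was called with edgeR, against 0.00615% of all genes (1 gene), and none had an unadjusted p under 0.05, against 3.77% (1.96% higher and 1.81% lower). DESeq2 called none of the 9, against 21 of the 16256 genes tested. In none of the 9 did the libraries of the 2 groups separate, against 7.9% of all genes separated upward and 4.72% downward. The highest library of the 9 was a stimulated one for 1 member, Chrnd, and an SUI one for the other 8, against 31.0% and 35.6% of all genes. Of those 8, SUI replicate 2 held 5, against 9.84% of all genes.

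**Figure D1:**
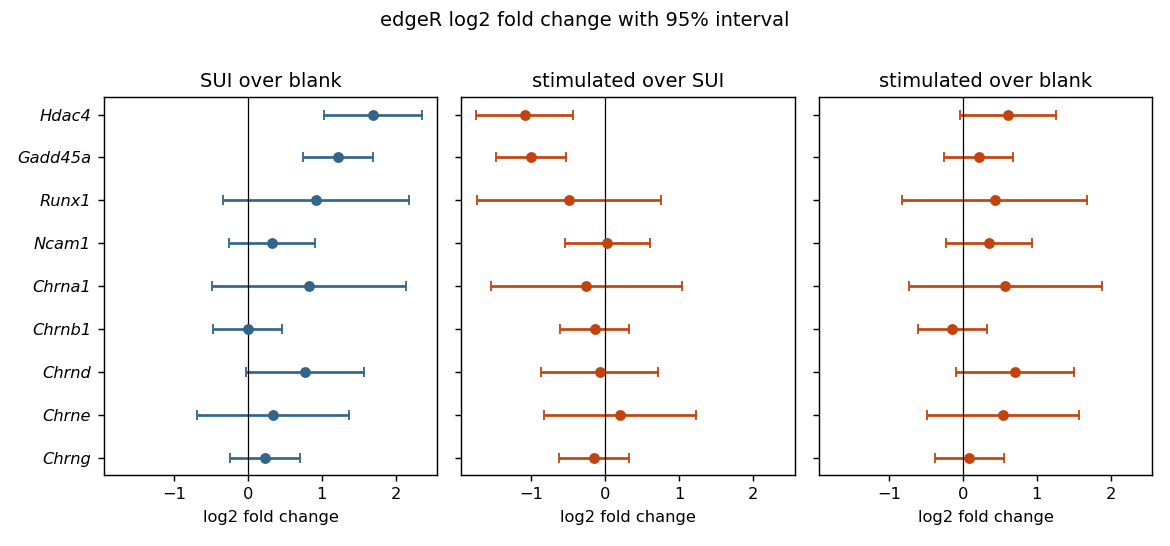
Log2 fold change (x axis) of the 9 genes in the 3 comparisons, points for the edgeR value and bars for its 95% interval. In SUI over blank and in stimulated over SUI the intervals of Hdac4 and Gadd45a alone exclude 0, before adjustment, and in stimulated over blank none does.

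Hdac4 and Gadd45a had the lowest p-values of the 9 in SUI over blank and in stimulated over SUI: both were higher in SUI muscle than in blank muscle, and both were lower in stimulated muscle than in SUI muscle. Neither passed the adjusted threshold with edgeR, while DESeq2 called both in both comparisons. Hdac4 (ENSRNOG00000020372, chr9:92507611-92750164 on the minus strand of mRatBN7.2) encodes a class IIa histone deacetylase that carries the loss of nerve activity to the fibre's genes. It measured 16.1, 9.55 and 11.3 CPM in stimulated libraries, 23.0, 34.1 and 21.6 CPM in SUI libraries and 6.96, 6.50 and 10.8 CPM in blank libraries. All 3 SUI libraries lay above all 6 others, and the stimulated and blank libraries overlapped. The means were 12.3 ± 3.39 CPM in stimulated, 26.2 ± 6.89 CPM in SUI and 8.08 ± 2.34 CPM in blank muscle (SD, n = 3 each).

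Hdac4 had a log2 fold change in SUI over blank of 1.70 ± 0.30, a 3.24-fold higher level with a 95% interval of 2.05 to 5.14, with an unadjusted p of 0.000216 and an adjusted p of 0.2 in edgeR and an adjusted p of 0.000137 in DESeq2. In stimulated over SUI it was -1.09 ± 0.29, with an unadjusted p of 0.00404 and an adjusted p of 0.425 in edgeR and an adjusted p of 0.0454 in DESeq2. Over blank, the stimulated libraries gave 0.61 ± 0.29 (unadjusted p = 0.0637, adjusted p = 0.898, edgeR) with a 95% interval of -0.04 to 1.26. By unadjusted p, Hdac4 stood at rank 17 of 16256 genes in SUI over blank. LOC120094890 and a gene without a symbol lie within Hdac4, with at most 22 counts per library.

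Gadd45a (ENSRNOG00000005615, chr4:96154789-96157115, minus strand) encodes a small stress-induced nuclear protein that, in mice, is needed for much of the fibre atrophy after nerve section and is induced downstream of HDAC4. Its levels were 32.2, 21.5 and 28.8 CPM in stimulated libraries, 53.9, 60.0 and 51.9 CPM in SUI libraries and 24.6, 19.2 and 27.4 CPM in blank libraries. The SUI libraries were close to each other and lay above all 6 others. The stimulated and blank libraries overlapped. Means were 27.5 ± 5.47 CPM in stimulated, 55.3 ± 4.23 CPM in SUI and 23.7 ± 4.17 CPM in blank muscle (SD, n = 3 each).

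Gadd45a had a log2 fold change in SUI over blank of 1.22 ± 0.21 (unadjusted p = 0.000205, adjusted p = 0.2, edgeR), and DESeq2 gave an adjusted p of 0.000193. In stimulated over SUI it was -1.01 ± 0.21 (unadjusted p = 0.000821, adjusted p = 0.274, edgeR), and the DESeq2 adjusted p was 0.00357. Over blank, the stimulated libraries gave 0.21 ± 0.21, with a 95% interval of -0.26 to 0.68 (adjusted p = 0.9, edgeR). Both genes kept an unadjusted p under 0.05 in these 2 comparisons with SUI under all 22 alternatives that were run.

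**Figure D2:**
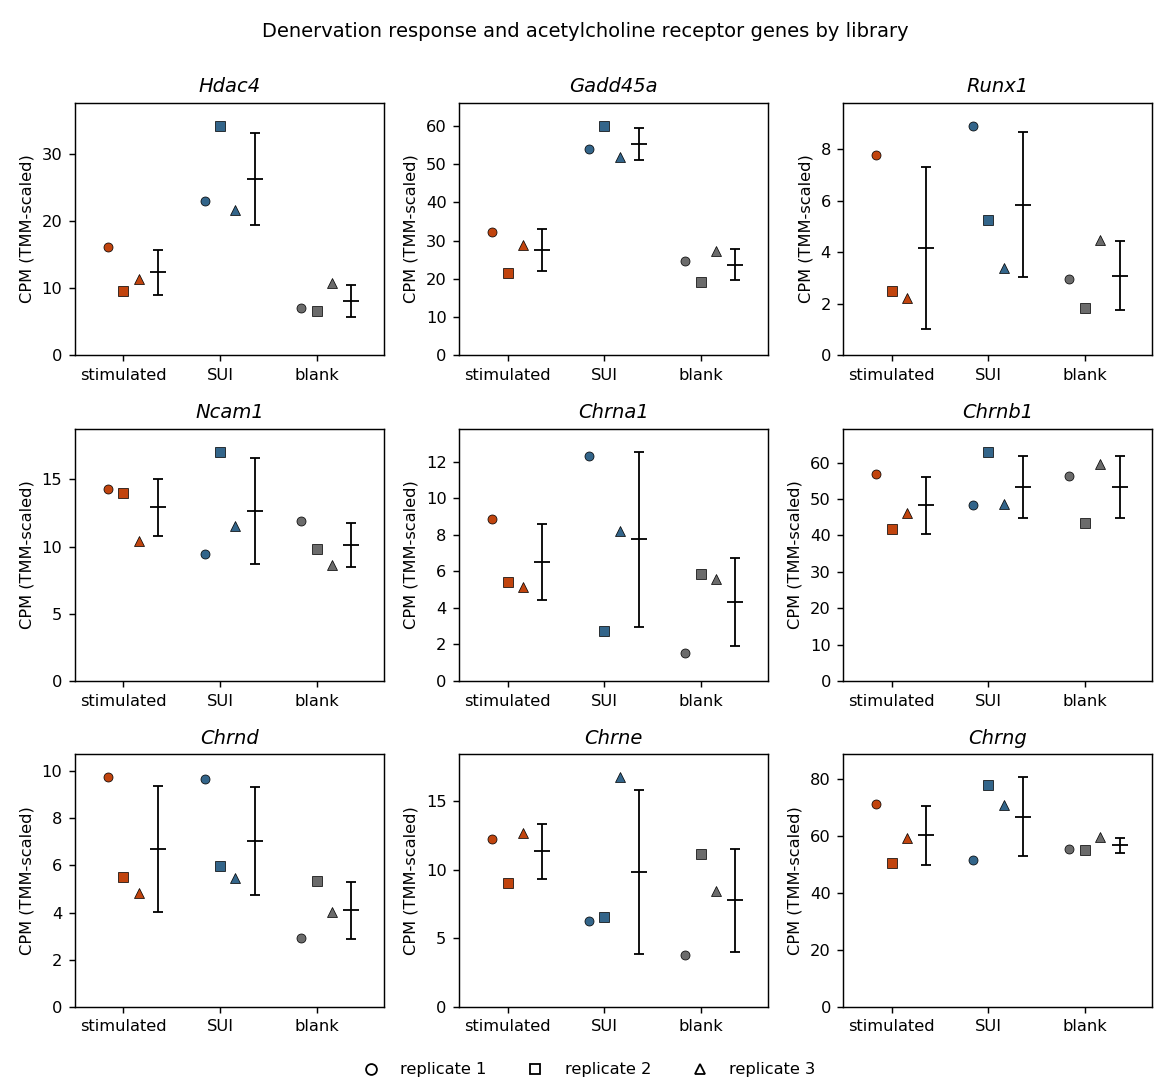
CPM (y axis, linear from 0, one panel per gene) of the 9 genes in each library, with stimulated, SUI and blank groups from left to right, points for libraries and bars for the mean ± SD of 3 libraries. The 3 SUI points of Hdac4 (21.6 to 34.1 CPM) and of Gadd45a (51.9 to 60.0 CPM) lie above all points of the other groups, while the groups overlap in most other panels.

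Hdac4 and Gadd45a followed each other over the 9 libraries, with a Pearson correlation of log2 CPM of 0.958, which is a description of libraries that share the group differences. Among 11457 genes with a mean of at least 1 CPM, the genes most like Hdac4 were Nedd4l at 0.971, Gadd45a at 0.958 and Urm1 at 0.946. Those most like Gadd45a were Arfgef2 at 0.970, Hdac4 at 0.958 and Zfp281 at 0.941.

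Hdac9, a class IIa deacetylase whose transcript falls on denervation in mice, had the opposite pattern to Hdac4. It measured 4.97, 11.4 and 9.23 CPM in stimulated libraries, 1.48, 1.85 and 0.874 CPM in SUI libraries and 20.5, 12.9 and 5.16 CPM in blank libraries. The SUI libraries lay below all 6 others. Hdac9 had a log2 fold change of -3.19 ± 0.54 in SUI over blank (unadjusted p = 0.000162, adjusted p = 0.2, edgeR) and 2.60 ± 0.52 in stimulated over SUI (unadjusted p = 0.000625, adjusted p = 0.274, edgeR). DESeq2 called Hdac9 in both, with adjusted p of 1.46e-06 and 0.000398. Hdac9 was picked from a list of 10 class IIa deacetylases, MEF2 factors and their partners, of which 9 were tested. In SUI over blank 3 of those 9 had a positive log2 fold change, none was called and 2, Hdac9 and Hdac5, were lower at an unadjusted p under 0.05, against 5.34% of all genes. Hdac5, also of class IIa, measured 41.1, 49.0 and 54.7 CPM in stimulated, 40.7, 34.4 and 28.6 CPM in SUI and 42.1, 61.4 and 44.5 CPM in blank libraries, with log2 fold changes of -0.51 ± 0.22 in SUI over blank and 0.48 ± 0.22 in stimulated over SUI. Dach2 had 0 to 4 counts per library and was not tested.

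**Figure D3:**
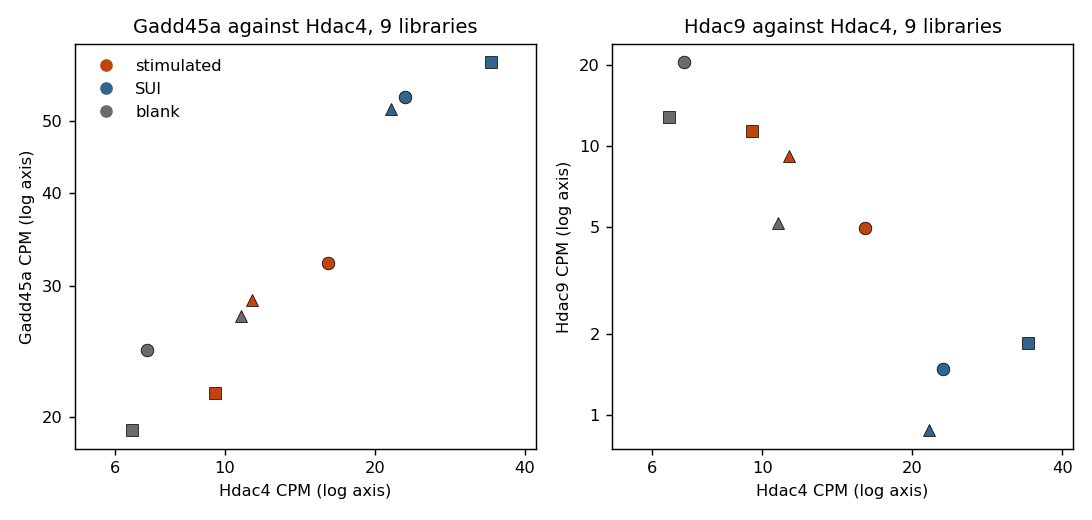
Scatter of the 9 libraries with Hdac4 CPM on the x axis and Gadd45a CPM (left panel) or Hdac9 CPM (right panel) on the y axis, all axes logarithmic, colours for stimulated, SUI and blank groups and marker shapes for replicates 1 (circle), 2 (square) and 3 (triangle). The 3 SUI libraries lie at the high end of Hdac4 (21.6 to 34.1 CPM), where Gadd45a is highest and Hdac9 lowest (0.874 to 1.85 CPM).

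For Runx1 and Ncam1 the 3 groups overlapped, and neither gene passed the adjusted threshold. Runx1 (ENSRNOG00000001704, chr11:31843764-31935431, minus strand) encodes a transcription factor that limits wasting of denervated fibres in mice, and is also made in blood cells. It measured 7.78, 2.48 and 2.21 CPM in stimulated libraries, 8.90, 5.23 and 3.39 CPM in SUI libraries and 2.94, 1.82 and 4.48 CPM in blank libraries. Replicate 1 was the highest of its group in both operated groups, and all groups overlapped. The log2 fold change was 0.92 ± 0.56 in SUI over blank (adjusted p = 0.635, edgeR), -0.49 ± 0.56 in stimulated over SUI (adjusted p = 0.891, edgeR) and 0.43 ± 0.56 in stimulated over blank (adjusted p = 0.909, edgeR). Without stimulated replicate 1, the value in stimulated over SUI was -1.32 (unadjusted p = 0.0277, edgeR) and that in stimulated over blank turned to -0.39.

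Ncam1 (ENSRNOG00000031890, chr8:49865633-50166014, minus strand) encodes the neural cell adhesion molecule, which spreads over the fibre surface after denervation and is also present on satellite cells, nerve and Schwann cells. Its levels were 14.3, 14.0 and 10.4 CPM in stimulated libraries, 9.42, 17.1 and 11.6 CPM in SUI libraries and 11.9, 9.79 and 8.67 CPM in blank libraries, and the groups overlapped. The log2 fold change was 0.33 ± 0.26 in SUI over blank (adjusted p = 0.702, edgeR), 0.03 ± 0.26 in stimulated over SUI (adjusted p = 0.993, edgeR) and 0.35 ± 0.26 in stimulated over blank (adjusted p = 0.898, edgeR). Leaving out SUI replicate 1 turned the value in stimulated over SUI to -0.14, and that value was positive in only 9 of the 22 alternatives.

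Ncam1 and Runx1 can be read beside markers of the other cells that make them. The 12 Schwann cell and nerve markers summed to 106 to 172 CPM in stimulated, 55.9 to 131 CPM in SUI and 114 to 208 CPM in blank libraries. In SUI over blank 11 of the 12 had a negative log2 fold change, beside 50.8% of all genes positive. Of the 12, 5 were lower at an unadjusted p under 0.05 (edgeR), against 5.34% of all genes, and none was higher. The 8 satellite cell markers summed to 49.9 to 53.1 CPM in stimulated, 38.2 to 42.5 CPM in SUI and 34.5 to 52.5 CPM in blank libraries. The 11 leukocyte markers summed to 61.5 to 317 CPM in stimulated, 94.5 to 111 CPM in SUI and 115 to 216 CPM in blank libraries, and 1 of them was at 0 in all blank libraries. The part of these cells in the Ncam1 and Runx1 values was not tested. The 10 fibroblast markers had their lowest sums in SUI. These were 985 to 3425 CPM in stimulated, 587 to 889 CPM in SUI and 1349 to 1614 CPM in blank libraries. All 10 were negative in SUI over blank, 4 of them at an unadjusted p under 0.05 (edgeR), against 5.34% of all genes. All 10 were positive in stimulated over SUI, 7 of them at that threshold, against 5.23%. Whether these markers bear on the Hdac4 and Gadd45a values was not tested.

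The 5 receptor genes share short promoter motifs. The 250 bases before each start site are printed because all 5 hold at least 1 E-box, the motif that myogenin and its relatives bind. The E-box letters searched were CAGCTG, which reads alike on both strands, and CAGGTG, which reads CACCTG on the opposite strand. Chrnd and Chrne also hold CCGGAA, the core that ETS-family factors such as GABP bind in genes transcribed under the nerve ending. It reads TTCCGG on the opposite strand. Both strands were searched, capitals mark these motifs, and no motifs overlapped each other. The sequences and coordinates are those of RefSeq on GRCr8, 5′ to 3′ on the strand of the gene.
Chrna1, chr3:78877354-78877603, minus strand: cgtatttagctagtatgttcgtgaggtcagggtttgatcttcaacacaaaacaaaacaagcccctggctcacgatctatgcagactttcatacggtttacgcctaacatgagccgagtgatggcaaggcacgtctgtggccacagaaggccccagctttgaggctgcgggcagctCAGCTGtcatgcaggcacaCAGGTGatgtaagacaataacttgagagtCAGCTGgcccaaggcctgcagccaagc
Chrnb1, chr10:55015108-55015357, minus strand: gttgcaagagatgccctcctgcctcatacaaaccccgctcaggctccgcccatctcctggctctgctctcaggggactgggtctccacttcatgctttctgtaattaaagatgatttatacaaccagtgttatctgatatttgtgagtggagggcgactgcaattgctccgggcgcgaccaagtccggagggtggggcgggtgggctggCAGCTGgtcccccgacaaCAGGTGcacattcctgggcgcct
Chrnd, chr9:95310066-95310315, plus strand: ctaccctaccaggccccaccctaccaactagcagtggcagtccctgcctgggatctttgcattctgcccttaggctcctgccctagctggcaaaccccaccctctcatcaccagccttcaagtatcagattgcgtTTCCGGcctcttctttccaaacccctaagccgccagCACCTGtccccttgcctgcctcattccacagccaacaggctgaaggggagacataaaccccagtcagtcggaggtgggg
Chrne, chr10:55834155-55834404, minus strand: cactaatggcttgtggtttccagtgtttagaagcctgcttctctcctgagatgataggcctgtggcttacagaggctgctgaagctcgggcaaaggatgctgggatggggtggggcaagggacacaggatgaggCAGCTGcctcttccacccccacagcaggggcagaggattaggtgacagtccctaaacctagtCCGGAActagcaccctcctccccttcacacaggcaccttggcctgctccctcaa
Chrng, chr9:95325734-95325983, plus strand: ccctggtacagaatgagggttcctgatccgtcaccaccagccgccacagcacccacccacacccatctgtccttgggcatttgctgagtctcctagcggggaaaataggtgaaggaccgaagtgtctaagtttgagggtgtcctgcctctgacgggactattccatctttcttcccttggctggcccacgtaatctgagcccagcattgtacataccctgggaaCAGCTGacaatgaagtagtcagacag

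E-boxes of the forms searched numbered 3 before Chrna1, 2 before Chrnb1 and 1 each before Chrnd, Chrne and Chrng. Other forms of the E-box were not counted. The counted one nearest to the start site lay 27, 23, 79, 116 and 26 bases before it in that order of genes. CCGGAA lay 115 bases before the start of Chrnd and 54 bases before that of Chrne. Among 27457 promoters of the same length, 25.5% held at least 1 of these E-boxes, 4.44% held 2 or more, and 13.4% held CCGGAA. None of these letters was found before Hdac4, Runx1 or Gadd45a, which says only that they are not in this window. These matches are descriptions of sequence and were not tested as binding sites.

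No receptor subunit passed the adjusted threshold in any comparison, and their groups overlapped except for Chrnd in SUI over blank. Chrna1 (ENSRNOG00000018286, chr3:58454744-58469840, minus strand), the alpha subunit that holds most of the acetylcholine binding site, measured 8.89, 5.44 and 5.16 CPM in stimulated libraries, 12.3, 2.73 and 8.19 CPM in SUI libraries and 1.54, 5.86 and 5.58 CPM in blank libraries. SUI held both a high and a low library, and blank replicate 1 was the lowest of all 9. The log2 fold change was 0.83 ± 0.58 in SUI over blank (adjusted p = 0.677, edgeR), -0.25 ± 0.58 in stimulated over SUI (adjusted p = 0.965, edgeR) and 0.58 ± 0.58 in stimulated over blank (adjusted p = 0.9, edgeR). With replicate 1 of both SUI and blank left out, the value in SUI over blank turned to -0.07, and without SUI replicate 1 that in stimulated over SUI turned to 0.26.

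Chrnd (ENSRNOG00000019527, chr9:87862407-87870833, plus strand) encodes the delta subunit, which completes the binding site on one side of an alpha subunit. It measured 9.74, 5.50 and 4.84 CPM in stimulated libraries, 9.68, 5.98 and 5.47 CPM in SUI libraries and 2.94, 5.35 and 4.02 CPM in blank libraries. The SUI libraries lay above the blank libraries, but the lowest SUI library and the highest blank library were nearly level. Chrnd had a log2 fold change in SUI over blank of 0.77 ± 0.36, with a 95% interval of -0.03 to 1.57 (unadjusted p = 0.0563, adjusted p = 0.607, edgeR). It was -0.07 ± 0.35 in stimulated over SUI (adjusted p = 0.987, edgeR), where leaving out SUI replicate 1 turned it to 0.23, stimulated replicate 2 to 0.05 and stimulated replicate 3 to 0.11. In stimulated over blank it was 0.70 ± 0.36 (adjusted p = 0.898, edgeR).

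Chrne (ENSRNOG00000003777, chr10:55331212-55335530, minus strand) encodes the epsilon subunit of adult receptors. It measured 12.2, 9.05 and 12.7 CPM in stimulated libraries, 6.26, 6.54 and 16.7 CPM in SUI libraries and 3.73, 11.1 and 8.42 CPM in blank libraries. The groups overlapped, and SUI replicate 3 was the highest library while the other SUI libraries were below all the stimulated ones. The log2 fold change was 0.34 ± 0.46 in SUI over blank (adjusted p = 0.814, edgeR), where leaving out SUI replicate 3 turned it to -0.28, and 0.20 ± 0.46 in stimulated over SUI (adjusted p = 0.964, edgeR), where leaving out SUI replicate 1 turned it to -0.03 and SUI replicate 2 to -0.02. It was 0.54 ± 0.46 in stimulated over blank (adjusted p = 0.898, edgeR). C10h17orf107 lies within Chrne on the opposite strand with 30 to 179 counts per library. Reads from any transcribed stretch that the pair shares cannot be told apart unless counting used strand, and no source used here says whether it did.

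Chrng (ENSRNOG00000019634, chr9:87878085-87884193, plus strand) encodes the gamma subunit, which epsilon replaces after birth and which returns in denervated muscle. It measured 71.1, 50.5 and 59.1 CPM in stimulated libraries, 51.4, 78.0 and 71.0 CPM in SUI libraries and 55.3, 55.1 and 59.6 CPM in blank libraries. Blank libraries were the most alike, and both other groups overlapped them. The log2 fold change was 0.24 ± 0.21 in SUI over blank (95% interval -0.23 to 0.71, adjusted p = 0.731, edgeR), -0.15 ± 0.21 in stimulated over SUI (adjusted p = 0.923, edgeR) and 0.09 ± 0.21 in stimulated over blank (adjusted p = 0.948, edgeR), where leaving out stimulated replicate 1 turned it to -0.05.

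Chrnb1 (ENSRNOG00000014698, chr10:54501093-54516345, minus strand), the beta subunit, measured 56.9, 41.6 and 46.1 CPM in stimulated libraries, 48.3, 63.1 and 48.5 CPM in SUI libraries and 56.4, 43.5 and 59.8 CPM in blank libraries. The groups overlapped throughout. Its log2 fold change in SUI over blank was 0.0019 ± 0.21, with a 95% interval of -0.47 to 0.47 (adjusted p = 0.998, edgeR), and its sign turned without blank replicate 2, at -0.12, and without SUI replicate 2, at -0.15. The value was -0.14 ± 0.21 both in stimulated over SUI (adjusted p = 0.927, edgeR) and in stimulated over blank (adjusted p = 0.92, edgeR). Zbtb4, with 1399 to 3498 counts per library, overlaps the end of Chrnb1 on the opposite strand. As for Chrne, reads from the shared stretch cannot be told apart unless counting used strand.

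Levels of different subunits were compared only per length, as the authors' FPKM, which scales fragments by gene length and library size. Chrnb1 averaged 19.9 ± 1.50 FPKM in stimulated, 24.8 ± 4.23 FPKM in SUI and 21.3 ± 4.18 FPKM in blank muscle (SD, n = 3 each), the highest level of the 5 in every library. Chrng came next in every library, at 16.3 ± 0.774 FPKM in stimulated, 18.7 ± 1.08 FPKM in SUI and 15.5 ± 1.12 FPKM in blank muscle. Chrne averaged 5.68 FPKM in stimulated, 5.34 FPKM in SUI and 4.01 FPKM in blank muscle.

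Chrnd and Chrna1 had the lowest group means, although in SUI replicate 1 both, at 6.12 and 7.08 FPKM, stood above Chrne at 4.18 FPKM. Chrnd averaged 3.14 FPKM in stimulated, 3.89 FPKM in SUI and 1.95 FPKM in blank muscle, and Chrna1 averaged 2.78 FPKM in stimulated, 3.95 FPKM in SUI and 1.95 FPKM in blank muscle. These 2 neighbours did not differ beyond the spread of their libraries. Chrng thus stood above Chrne in every library: the ratio of gamma to epsilon FPKM was 3.07, 3.11 and 2.51 in stimulated, 4.36, 5.83 and 2.13 in SUI and 10.2, 2.61 and 3.63 in blank libraries. The ratio was most even in the stimulated group, and its high value in blank replicate 1 came with the lowest Chrne level of the 9 libraries.

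The level of Chrng carries a limit. The length implied by its counts and FPKM was 2.87 to 3.90 kb with a median of 3.68 kb, against medians of 1.95 to 2.35 kb for the other 4 subunits, and varied between libraries more than theirs. In RefSeq, Eif4e2 is the next gene downstream on the same strand. Whether the Chrng row holds reads that do not come from the receptor subunit was not tested. Nor was it tested whether the Chrnb1 row holds reads of the overlapping Zbtb4.

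**Figure D4:**
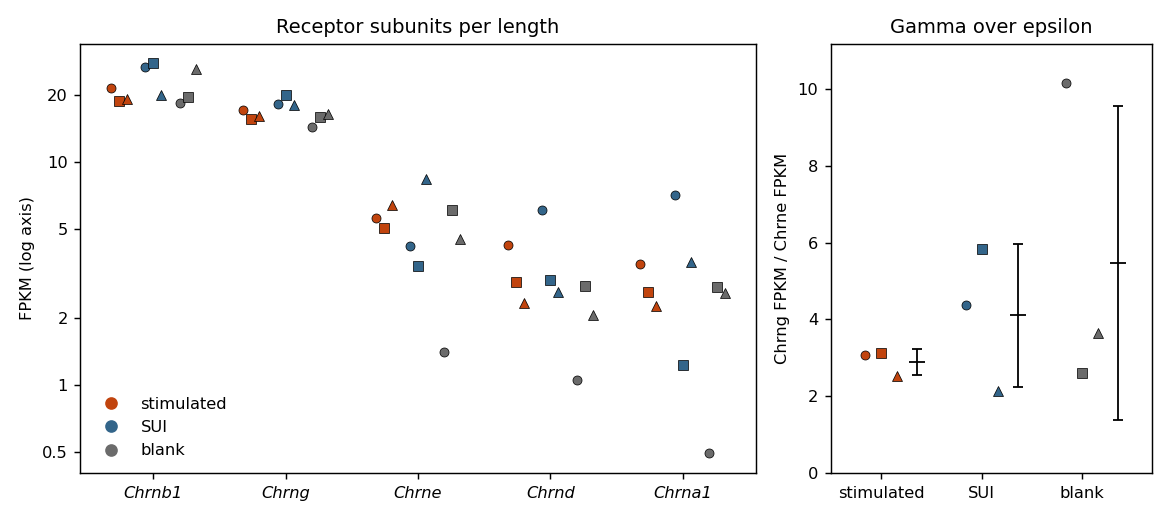
Left panel, FPKM (log axis) of the 5 receptor subunits in each library, with stimulated, SUI and blank points from left to right within a gene. Right panel, the ratio of Chrng to Chrne FPKM (linear axis from 0) with the mean ± SD of 3 libraries, where stimulated libraries lie between 2.51 and 3.11, SUI libraries between 2.13 and 5.83 and blank libraries between 2.61 and 10.2.

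Other genes known to respond to denervation were read beside the 9. Of 21 listed, 20 were tested: 14 had a positive log2 fold change in SUI over blank, with a median of 0.44 against 0.01 over all genes. None was called with edgeR, and at an unadjusted p under 0.05 5 were higher, against 2.84% of all genes, and 5 lower, against 5.34%. The higher ones were Musk, Cdkn1a, Sln, Fbxo32 and Fbxo31, and the lower ones Hdac9, Rrad, Gadd45b, Ankrd1 and Myh8. These counts take no account of the direction expected of each gene on denervation. Among the lower genes that direction is stated here for Hdac9 alone, so the counts are not a match to a denervation pattern. In stimulated over SUI 8 of the 20 were positive, the median was -0.07, none was called with edgeR, and 3 were higher, against 5.23% of all genes, and 2 lower, against 2.77%, at an unadjusted p under 0.05. SUI replicate 1 held the highest value of 8 of the 20, against 16.4% of all genes, and blank replicate 1 that of 6 of the 20, against 23.95%.

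Musk, the receptor kinase that gathers acetylcholine receptors under the nerve, had a pattern like that of Hdac4. It measured 3.44, 3.25 and 4.07 CPM in stimulated libraries, 9.17, 4.47 and 6.31 CPM in SUI libraries and 2.44, 2.09 and 2.87 CPM in blank libraries. Here all 3 groups were apart, with SUI highest and blank lowest. Musk had a log2 fold change of 1.43 ± 0.30 in SUI over blank (unadjusted p = 0.000769, adjusted p = 0.34, edgeR) and -0.89 ± 0.29 in stimulated over SUI (unadjusted p = 0.0127, adjusted p = 0.507, edgeR). The DESeq2 adjusted p of Musk were 0.0025 and 0.144.

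Fbxo32, which encodes the ubiquitin ligase atrogin-1 of wasting muscle, measured 25.0, 14.9 and 22.6 CPM in stimulated libraries, 583, 74.8 and 138 CPM in SUI libraries and 87.5, 51.4 and 33.7 CPM in blank libraries. The stimulated libraries lay below all others, and SUI replicate 1 lay far above the rest. Fbxo32 had a log2 fold change of 2.21 ± 0.69 in SUI over blank (adjusted p = 0.524, edgeR), or 0.88 without SUI replicate 1, and -3.67 ± 0.73 in stimulated over SUI (adjusted p = 0.266, edgeR), or -2.35 without it. The DESeq2 adjusted p of Fbxo32 were 0.0602 and 1.33e-05. Rrad, which encodes a small GTPase that restrains calcium channels, was lower in SUI, at 1.79, 5.18 and 4.99 CPM in stimulated, 1.74, 1.49 and 0.832 CPM in SUI and 11.5, 8.69 and 9.84 CPM in blank libraries. For Rrad it was -2.88 ± 0.44 in SUI over blank (unadjusted p = 7.47e-05, adjusted p = 0.2, edgeR) and 1.55 ± 0.42 in stimulated over SUI (adjusted p = 0.425, edgeR), and DESeq2 called Rrad in both, with adjusted p of 6.53e-07 and 0.0415.

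**Figure D5:**
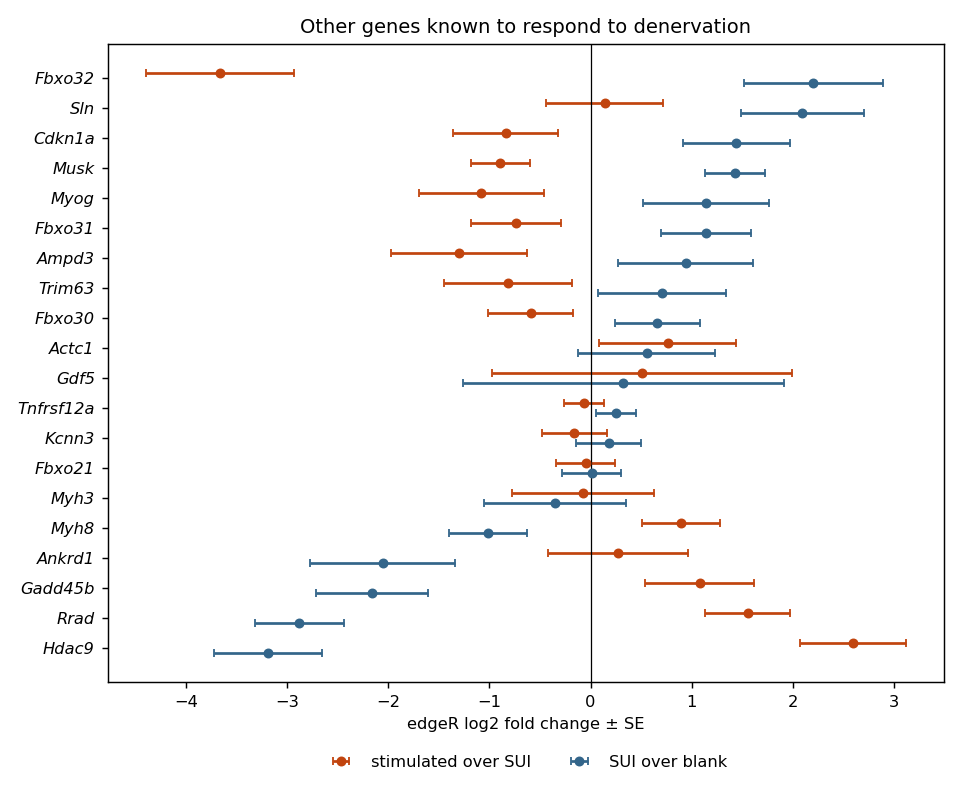
Log2 fold change ± SE (x axis, edgeR) of the 20 tested genes of the denervation list in stimulated over SUI and in SUI over blank, ordered by the value in SUI over blank. Hdac9, at -3.19 in SUI over blank and 2.60 in stimulated over SUI, and Fbxo32, at 2.21 and -3.67, mark the ends.

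Among the myogenic factors that bind E-boxes and their inhibitors, 10 genes were listed and tested, 6 had a positive log2 fold change in SUI over blank and 7 in stimulated over SUI, and none was called with edgeR in either. At an unadjusted p under 0.05, 2 were higher and 1 lower in SUI over blank, against 2.84% and 5.34% of all genes, and 1 was lower in stimulated over SUI, against 2.77%. Myf6, a myogenic factor of mature fibres, measured 74.5, 65.5 and 68.3 CPM in stimulated libraries, 223, 415 and 438 CPM in SUI libraries and 53.0, 51.5 and 117 CPM in blank libraries. All SUI libraries lay above all others. Myf6 had a log2 fold change of 2.28 ± 0.38 in SUI over blank (adjusted p = 0.2, edgeR) and -2.37 ± 0.38 in stimulated over SUI (unadjusted p = 0.000108, adjusted p = 0.181, edgeR). DESeq2 called Myf6 in both, with adjusted p of 3.16e-06 and 5.5e-07. Myog, which encodes myogenin and was named after its values were seen, measured 6.82, 12.6 and 13.6 CPM in stimulated libraries, 50.1, 9.23 and 10.4 CPM in SUI libraries and 14.8, 7.13 and 9.79 CPM in blank libraries. Outside SUI replicate 1 the Myog levels of the 3 groups overlapped (adjusted p = 0.614 in SUI over blank, edgeR).

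Of the scaffold and signalling genes of the postsynaptic membrane, 13 of 15 listed were tested: 4 had a positive log2 fold change in SUI over blank and 8 in stimulated over SUI, and none was called with edgeR. At an unadjusted p under 0.05, 1 was higher and 1 lower in SUI over blank, against 2.84% and 5.34% of all genes, and 3 were higher and 1 lower in stimulated over SUI, against 5.23% and 2.77%. Sntb1, which encodes a syntrophin of the dystrophin complex, measured 0.747, 1.68 and 1.46 CPM in stimulated libraries, 0.478, 0.479 and 0.647 CPM in SUI libraries and 2.73, 1.94 and 4.55 CPM in blank libraries. The 3 groups were apart in Sntb1, with SUI lowest and blank highest (log2 fold change -2.52 ± 0.44 in SUI over blank, adjusted p = 0.2 with edgeR and 2.12e-05 with DESeq2). Dok7, which encodes the activator of MuSK, measured 13.4, 31.7 and 28.7 CPM in stimulated libraries, 12.0, 10.0 and 13.3 CPM in SUI libraries and 9.08, 24.7 and 20.5 CPM in blank libraries. Its log2 fold change was 1.06 ± 0.40 in stimulated over SUI (unadjusted p = 0.0244, adjusted p = 0.538, edgeR), with the lowest stimulated library only just above the highest SUI library. Rapsn is not analysed here.

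Relatives and partners of Runx1 and Gadd45a were read beside them. Of 10 listed and tested, 3 had a positive log2 fold change in SUI over blank and 6 in stimulated over SUI, and none was called with edgeR. At an unadjusted p under 0.05, 1 was higher and 2 lower in SUI over blank, against 2.84% and 5.34% of all genes, and 1 was higher and 1 lower in stimulated over SUI, against 5.23% and 2.77%. Gadd45b, the stress-induced relative of Gadd45a, measured 26.3, 9.18 and 18.6 CPM in stimulated libraries, 7.13, 7.30 and 11.2 CPM in SUI libraries and 65.1, 36.7 and 13.0 CPM in blank libraries. Every SUI library lay below every blank library for Gadd45b, whereas every SUI library lay above every blank library for Gadd45a. Gadd45b had a log2 fold change in SUI over blank of -2.16 ± 0.56 (unadjusted p = 0.00322, adjusted p = 0.447, edgeR), and DESeq2 gave an adjusted p of 0.012. Atf4 and Cdkn1a had the signs of Gadd45a. Atf4 gave 0.39 ± 0.25 in SUI over blank and -0.71 ± 0.25 in stimulated over SUI (unadjusted p = 0.147 and 0.0174, edgeR), with the groups apart in both. Cdkn1a gave 1.44 ± 0.53 and -0.84 ± 0.52 (unadjusted p = 0.0211 and 0.137, edgeR), with overlapping groups. Neither passed the adjusted threshold under any alternative. Runx3 measured 1.05, 1.02 and 1.25 CPM in stimulated libraries, 0.195, 0.371 and 0.298 CPM in SUI libraries and 1.01, 0.930 and 0.454 CPM in blank libraries, with SUI lowest throughout (log2 fold change -1.46 ± 0.43 in SUI over blank and 1.94 ± 0.43 in stimulated over SUI, adjusted p = 0.504 and 0.293 with edgeR and 0.0817 and 0.00409 with DESeq2).

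For the remaining members the most similar genes over the 9 libraries were given by the same measure, Pearson correlation of log2 CPM. They were Slc4a7 for Runx1 at 0.910, Rpl28 for Ncam1 at 0.913, Creld1 for Chrna1 at 0.953, Sirt1 for Chrnb1 at 0.954, Blmh for Chrnd at 0.920, Poll for Chrne at 0.967 and Slc30a3 for Chrng at 0.990. No other receptor subunit was among the 3 genes most like any subunit. Chrna1 and Chrnd correlated at 0.770, Chrna1 and Chrne at 0.627, and Chrna1 and Chrnb1 at -0.387. With 9 libraries in 3 groups these correlations describe shared differences between libraries and groups.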

How the data were processed

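RNA from 9 pubococcygeus libraries was analysed, 3 per group, grouped and numbered by their sample titles, and all 9 carry one batch label. Bowtie2, RSEM 1.3.1, DESeq2 1.4.5 and the build mRatBN7.2 are named in the submitters' processing notes, and no source used here states whether counting used strand. Expected counts, as deposited, were whole numbers and look rounded up, since 358 counts of 1 had FPKM under 0.001. FPKM values, the authors' estimates scaled by length and library size per the file headers, were used for levels between genes and for alternatives.

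The members and lists were chosen with earlier results of these data known. Counts were rounded, filtered with filterByExpr, TMM-scaled and tested in one fit of all 9 libraries with the robust quasi-likelihood F test of edgeR 4.0.16 in R 4.3.3, with Benjamini-Hochberg adjustment over 16256 genes at 0.05. The SE of a log2 fold change is its size divided by the square root of F. Of 133 list genes, 131 matched a row by symbol and 127 were tested. Named were the 9 members, up to 4 genes per list by smallest p in SUI over blank or stimulated over SUI, described where they bear on the members, and the 3 genes most correlated with each member; Myog was added after its values were seen. One further gene is not reported here. Promoters came from RefSeq (GRCr8), where 8 of the 9 members matched, Ncam1 being the one without an entry. Alternatives were DESeq2 1.42.0 and its size factors, library totals, no filter, a mean CPM of 1, voom with sample weights (limma 3.58.1), a block for replicate number, a fit on the 6 libraries of a comparison, limma on log2(FPKM + 1) and log2(FPKM + 0.1), and leaving out libraries; removing a length trend and leaving out SUI 1 with stimulated 1 were chosen after seeing the data. The main edgeR fit, DESeq2, voom, the length trend fit and limma with a pseudocount of 1 were run on simulated data with known changes in SUI over blank. The other alternatives were not. The outcome of the simulated runs is not given here, so they do not support either the edgeR or the DESeq2 number of genes called. Depth and floor are given above and cover counting error only.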

Additional observations from a re-analysis of the deposited data

How the results depend on the processing

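Hdac4 and Gadd45a kept their direction and an unadjusted p under 0.05 in SUI over blank and stimulated over SUI under every alternative run. Leaving out 1 library each gave Hdac4 log2 fold changes of 1.45 to 1.97 and -1.33 to -0.86, and Gadd45a 1.09 to 1.34 and -1.14 to -0.86; their adjusted p over all alternatives ran from 0.000137 to 0.536 and 0.0454 to 1 for Hdac4 and from 0.000193 to 0.521 and 0.00357 to 0.748 for Gadd45a. Members at an unadjusted p under 0.05 numbered 2 in SUI over blank (2 to 3 over all alternatives), 2 in stimulated over SUI (2 to 3) and 0 in stimulated over blank (0 to 1). In SUI over blank, Chrnd was among them in 5 of 22 alternatives, Ncam1 in 2 and Chrna1 in 1.

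Genes called in SUI over blank numbered 0, against 176 with DESeq2 and 0 to 1 without 1 library. In stimulated over SUI they numbered 2, against 208 with DESeq2, 48 with voom, 1 with library totals or the replicate block, 0 with the 6 libraries compared, either FPKM pseudocount, or without SUI 1 and blank 1 or SUI 1 and stimulated 1 together, and 0 to 3 without 1 library. In stimulated over blank they numbered 1, against 21 with DESeq2, 0 with the 6 libraries, the replicate block, log2(FPKM + 1) or either pair left out, and 0 to 1 without 1 library. The cause was not tested. Same-numbered libraries correlated at -0.29 to 0.09 in their deviations from the group means. No pairing by number was seen in this measure, which cannot exclude a block that they share. Scaling by library totals put the median log2 fold change over all genes at 0.19 in SUI over blank, -0.11 in stimulated over SUI and 0.09 in stimulated over blank.

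Small values turned sign. In SUI over blank, Chrna1 gave -0.058 with voom and -0.0686 without SUI 1 and blank 1; Chrnb1 gave -0.0157 with DESeq2, -0.016 with its size factors, -0.0267 at a mean CPM of 1, -0.000959 with 6 libraries and -0.0605 with the length trend removed. Without SUI 1 and blank 1, stimulated over SUI was 0.25 for Chrna1 (0.0687 with voom), 0.23 for Chrnd and -0.0377 for Chrne, which was -0.0785 without SUI 1 and stimulated 1. Ncam1 there gave -0.0774 with library totals, -0.24 with voom, -0.00104 with 6 libraries, -0.0637 and -0.0877 with FPKM pseudocounts of 1 and 0.1, -0.15 without SUI 1 and blank 1, -0.0291 with the length trend removed and -0.21 without SUI 1 and stimulated 1. In stimulated over blank, leaving out that pair gave -0.0551 for Chrng and -0.40 for Runx1, and voom -0.0284 for Runx1. Without 1 library each, the ranges that crossed 0 in SUI over blank were -0.15 to 0.0962 for Chrnb1 and -0.28 to 0.69 for Chrne. In stimulated over SUI they were -0.67 to 0.26 for Chrna1, -0.45 to 0.23 for Chrnd, -0.0304 to 0.82 for Chrne, -0.14 to 0.30 for Ncam1 and -0.00547 to 0.63 for Id2, an inhibitor of myogenic factors. In stimulated over blank they were -0.0455 to 0.20 for Chrng and -0.39 to 0.82 for Runx1.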
